A study of Mus musculus with 40 samples.

Results

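Dglucy, the gene for D-glutamate cyclase (NCBI gene 217830), was selected on one result of this series: it was the gene with the smallest p-value when fetal liver stem and progenitor cells homozygous for the Kat6a G656E point mutation were compared with wild-type (WT) cells. It is 1 gene of 26411 in the deposited count tables. Because that contrast made the choice, every value below that rests on the Kat6a E/E or WT cells of the fetal liver is given as a description, and tests are given only for other comparisons. D-glutamate cyclase is a mitochondrial enzyme that turns D-glutamate, the mirror image of the common amino acid, into 5-oxo-D-proline. KAT6A and KAT6B are related histone lysine acetyltransferases, and KAT6A acetylates lysine 23 of histone H3 and is needed for definitive haematopoietic stem cells.

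RNA-seq was performed on 2 kinds of material from mouse embryos, with 4 libraries per genotype and 40 libraries in all. LSK cells, the lineage-negative, SCA1-positive, c-KIT-positive fraction that contains haematopoietic stem and progenitor cells, were, per the labels, sorted by flow cytometry from livers at E14.5 (day of embryonic development) in 4 genotypes: WT, Kat6a E/E (G656E on both Kat6a alleles), Kat6b E/E (G577E on both Kat6b alleles) and the double point mutant that is homozygous for both. Whole male embryos at E9.5 were profiled in the same 4 genotypes and in the 2 null genotypes Kat6a-/- (labelled cfd/cfd) and Kat6b-/- (labelled dec/dec), both of which lack a block of exons. The point mutations replace a glycine in the acetyl-CoA binding part of each enzyme, leave a full-length protein and are carried in every cell of the embryo. The sex of the LSK donors was not given in the sources used here.

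The LSK libraries held between 12270376 and 59216547 counts over all genes, and the E9.5 libraries between 8401990 and 23339359. In 4 LSK libraries, Kat6a E/E replicate 2 and double point mutant replicates 2, 3 and 4, only 12600 to 13683 genes had any count, against 16082 to 17647 genes in the other 12. These 4 libraries held 12270376 to 26857333 counts, against 15649709 to 59216547 in the other 12. Double point mutant replicate 3 was the shallowest LSK library. The 3 double point mutant libraries came from litter 1045, and the fourth, replicate 1, came from litter 970. All 8 LSK markers that were examined (Kit, Ly6a, Cd34, Flt3, Gata2, Meis1, Hlf and Mecom) were detected. Values below are TMM CPM, counts scaled to the library size after adjustment by the trimmed mean of M-values, unless stated, and marker sums are CPM without that adjustment.

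Dglucy lies on the plus strand of mouse chromosome 12 (GRCm39, 100745303 to 100863240, with 26 annotated transcripts). Its canonical transcript runs from 100745316 to 100838869 in 13 exons that sum to 3295 bases. No exon of another annotated gene overlaps those exons. The library kit does not keep the strand. The 300 bases around the start of transcription are shown as background, since the result concerns the transcript level of this gene. They are given 5′ to 3′ on the plus strand from the RefSeq promoter table (build GRCm38.p6), and were found once on the chromosome in GRCm39, at chr12:100745066-100745365, with CCAAT and its reverse complement ATTGG in capitals.

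Dglucy promoter: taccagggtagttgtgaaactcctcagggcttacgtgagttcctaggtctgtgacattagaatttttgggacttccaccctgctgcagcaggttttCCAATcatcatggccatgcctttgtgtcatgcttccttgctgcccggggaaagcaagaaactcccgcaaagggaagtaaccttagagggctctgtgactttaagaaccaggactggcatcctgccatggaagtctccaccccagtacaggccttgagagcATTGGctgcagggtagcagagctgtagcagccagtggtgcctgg

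The stretch holds 3 CpG dinucleotides, where the median of all promoters in the table is 7, and its GC content of 53.0% is close to the median of 52.7%. CCAAT occurs 1 time on each strand, and 37.4% of the 32851 promoters of the table hold it on either strand. The TATA box (letters TATAAA, held by 13.6% of promoters), the GC box (letters GGGCGG, 35.7%) and the core of the RUNX motif (letters TGTGGT, 16.8%) were searched on both strands and have no match in this window. No chromatin data were analysed here, so nothing about KAT6A at this promoter was measured.

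In LSK cells, Dglucy was present in every library and was highest in the Kat6a E/E cells. WT replicates 1 to 4 held 11.4, 10.4, 10.5 and 5.99 TMM CPM. Kat6a E/E replicates 1 to 4 held 21.8, 18.7, 20.7 and 23.9 TMM CPM. The lowest Kat6a E/E library was above the highest WT library, so the groups did not overlap, and the low-detection library Kat6a E/E replicate 2 was the lowest of its group. Kat6b E/E replicates 1 to 4 held 7.38, 5.17, 5.24 and 8.45 TMM CPM, all below WT replicates 1 to 3 and on either side of WT replicate 4.

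The double point mutants did not form 1 cluster. Replicates 1 to 4 held 18.7, 14.0, 5.20 and 5.94 TMM CPM, which is a 3.601-fold range within the genotype. Replicate 1 lay at the level of the lowest Kat6a E/E library and replicate 2 between the WT and Kat6a E/E libraries, whereas replicates 3 and 4 lay within the range of the Kat6b E/E cells. Replicates 2, 3 and 4 shared a litter, so the spread was present among littermates. The exact 95% Poisson intervals of these counts, which cover counting error only, were 12.2 to 15.9 for replicate 2, 3.98 to 6.68 for replicate 3 and 5.03 to 6.95 for replicate 4.

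**Figure D1:**
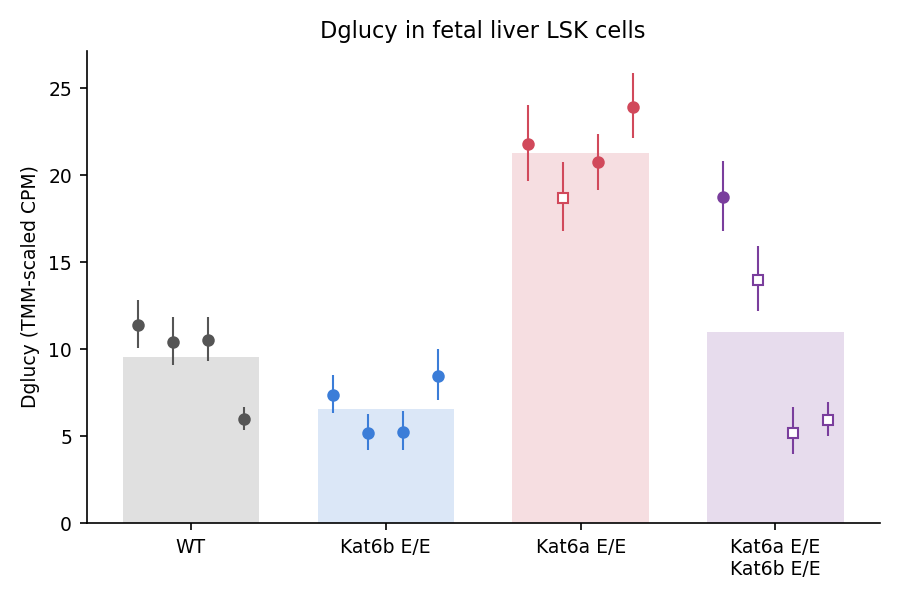
Dglucy in TMM CPM (y axis) in each LSK library of the 4 genotypes (x axis), with replicates 1 to 4 from left to right, exact 95% Poisson intervals as vertical lines and group means as pale bars. White squares are the 4 libraries with fewer than 14000 genes detected. The Kat6a E/E libraries, at 18.7 to 23.9, sit above every WT and Kat6b E/E library, and the double point mutants spread from 5.20 to 18.7.

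As group means, Dglucy stood at 21.3 ± 2.18 TMM CPM in Kat6a E/E cells (SD, n = 4), 10.96 ± 6.53 in double point mutants, 9.58 ± 2.43 in WT and 6.56 ± 1.63 in Kat6b E/E cells. In this order, the libraries of the double point mutants overlapped with those of each neighbour in the list, and WT replicate 4 lay within the Kat6b E/E range. The Kat6a E/E mean was 2.22 times the WT mean. In the linear model with litter and 4 surrogate variables, which are unwanted factors estimated from all genes, the log2 difference was 1.27 ± 0.12 (SE), a 2.42-fold difference, which was rank 1 of 13071 genes by p-value but rank 192 by size. In that contrast 178 genes, 1.36% of those tested, passed an FDR of 0.05, and these values made the choice of Dglucy, so no test is drawn from them.

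The genes next in that order were Cpa3, a mast cell carboxypeptidase, and Irf5, an interferon regulatory factor. Cpa3 was lower in Kat6a E/E than in WT cells by a log2 difference of -1.04 ± 0.11, from 35.6 ± 5.11 to 18.8 ± 3.44 TMM CPM. Irf5 was higher by 0.68 ± 0.08, from 29.4 ± 3.44 to 43.4 ± 9.25 TMM CPM. Both differences were smaller than that of Dglucy, and these genes stand just outside the choice.

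Leaving out each of the 16 LSK libraries in turn left Dglucy at rank 1 by p-value every time, with log2 differences between Kat6a E/E and WT from 1.09 to 1.32. These fits kept the 4 surrogate variables. Without surrogate variables, on all 16 libraries, the rank was 5 with limma (log2 difference 1.39). It was 27 with edgeR (1.16) and 27 with DESeq2 (1.15). Within litter 753, the only litter with both genotypes, the single Kat6a E/E fetus held 21.8 TMM CPM and the 3 WT littermates averaged 10.8, a ratio of 2.02. The other WT library, replicate 4 from litter 1111, was the lowest of its group and the deepest of the series.

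By length, Dglucy was a modestly expressed gene in these cells. It stood at 2.77 RPKM (TMM CPM divided by the gene length in the deposited tables, 3461 bases, in kilobases) in WT, above 27.1% of the 13071 genes tested, whose median was 10.2. In Kat6a E/E cells it stood at 6.15 RPKM, above 39.1% of them.

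The comparison of double point mutants with Kat6b E/E cells asks the same question about the Kat6a mutation on a Kat6b mutant background, and neither group took part in the contrast that made the choice. The libraries overlapped: double point mutant replicates 3 and 4, at 5.20 and 5.94 TMM CPM, lay inside the Kat6b E/E range of 5.17 to 8.45, and an exact permutation test on log2 TMM CPM gave p = 0.314 (two-sided, 4 against 4, where the smallest possible p is 0.0286), or 0.882 adjusted over the 9 comparisons tested in this way. A linear model of only these 8 libraries, without surrogate variables, gave a log2 difference of 0.62 ± 0.45 (SE; limma, FDR = 0.827).

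In the linear model of all 16 LSK libraries the log2 difference was 1.11 ± 0.17 (SE; 95% interval 0.74 to 1.47), a 2.15-fold difference (limma, FDR = 0.0177). Dglucy ranked 6 by p-value among 13071 genes, of which 193, or 1.48%, passed. This estimate is not independent of the choice of Dglucy, because the model took its surrogate variables and its spread from all 16 libraries, the Kat6a E/E and WT ones included. Through the surrogate variables, Kat6a E/E replicate 2 entered the difference with a weight of 9.06% and WT replicate 4 with -7.00%.

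That call rested on the surrogate variables and on 1 library. Without surrogate variables the difference was 0.72 ± 0.43 (limma, FDR = 0.745). With equal library weights, double point mutant replicate 1 carried 67.5% of the weight of its genotype in the estimate with surrogate variables and replicates 2, 3 and 4 carried 5.37%, 13.0% and 14.2%. Without replicate 1 the log2 difference was 0.19 ± 0.18 (limma, FDR = 0.472). The FDR was also above 0.05 without Kat6b E/E replicate 1 (log2 difference 1.12, limma FDR = 0.0691), without Kat6b E/E replicate 2 (1.09, limma FDR = 0.0599) and with the replicate number as a block (1.10, limma FDR = 0.0601).

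Without the 4 low-detection libraries, which leaves replicate 1 as the lone double point mutant, the difference was 1.15 (limma, FDR = 0.000395) with surrogate variables and 1.46 (limma, FDR = 0.0998) without them. Its spread was then assumed to equal that of the other groups. Replicate 1 had 1 littermate among the Kat6b E/E cells, replicate 1 of that genotype, and in this litter, 970, the double point mutant held 18.7 TMM CPM and the Kat6b E/E fetus 7.38, a ratio of 2.54. The remaining litter of double point mutants, 1045, held no other genotype, so in those 3 libraries the litter and the genotype cannot be told apart.

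**Figure D2:**
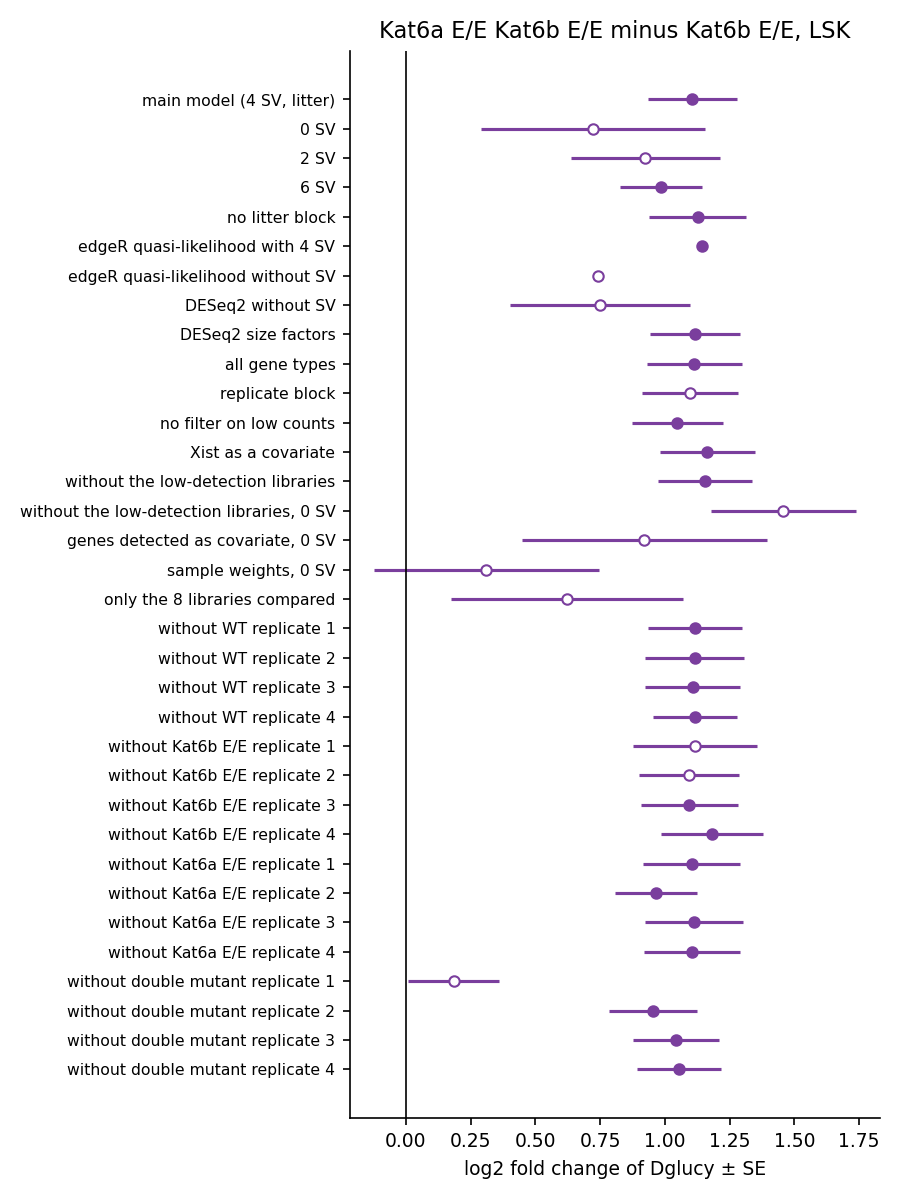
Log2 fold change of Dglucy (x axis, points ± SE; the 2 edgeR fits give no SE) between double point mutant and Kat6b E/E LSK cells under each model or left-out library (y axis; SV, surrogate variables), with filled points where the FDR was under 0.05. The estimates lie between 0.95 and 1.18 over the other 15 left-out libraries and at 0.19 without double point mutant replicate 1.

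The remaining LSK contrasts are descriptions because they use libraries of the choice. Double point mutants minus WT gave a log2 difference of 0.97 ± 0.18, Kat6b E/E minus WT gave -0.14 ± 0.18, and double point mutants minus Kat6a E/E gave -0.30 ± 0.16. The first of these was 0.36 without surrogate variables and 0.38 without them in only the 8 libraries compared. It was 0.02 without double point mutant replicate 1, and the last contrast was -1.13 without that replicate.

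Within each of WT, Kat6b E/E and Kat6a E/E cells, the library lowest in Dglucy was also lowest in the summed level of the LSK markers. This did not hold across genotypes or within the double point mutants. The 8 LSK markers summed to 1871 to 2015 CPM in WT replicates 1 to 3 and to 1166 CPM in replicate 4, which was also the lowest in Dglucy. In Kat6b E/E cells they summed to 1038 and 1047 CPM in replicates 2 and 3, the lower 2 in Dglucy, and to 1566 and 1633 CPM in replicates 1 and 4. In double point mutants they summed to 1883 CPM in replicate 1 and to 952, 1103 and 1058 CPM in replicates 2, 3 and 4. Replicate 2, with the lowest sum, held 14.0 TMM CPM of Dglucy, against 5.20 and 5.94 in replicates 3 and 4. In Kat6a E/E cells the 8 markers summed to 1819, 1246, 1874 and 2032 CPM. The lowest sum was in replicate 2, which was the lowest of that genotype in Dglucy as well. Its 18.7 TMM CPM of Dglucy was still above every WT library.

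The 5 erythroid markers (Hba-a1, Hbb-bt, Klf1, Alas2 and Epor), all of them detected, were high in many of the same libraries, although an LSK sort removes lineage-positive cells. The labels state that sort, and the study's Results name LSK cells as the material sequenced. The RNA section of its methods describes liver cells passed through a sieve and mentions no sort. The erythroid markers summed to 568 to 2169.6 CPM in WT, 1119 to 2941 in Kat6b E/E and 322 to 3489 in Kat6a E/E cells. In double point mutants they summed to 758 CPM in replicate 1 and to 7779, 4761 and 4540.3 CPM in replicates 2, 3 and 4. Double point mutant replicate 2 had the highest erythroid sum of all 16 libraries and still held 14.0 TMM CPM of Dglucy, and Kat6a E/E replicate 2, with 3489 CPM of erythroid markers, held 18.7. In bulk libraries, fewer cells of a type and less RNA per cell cannot be told apart, and the part of cell composition in the Dglucy levels was not tested.

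Among markers of other cells, the summed level of 4 lymphoid genes (Il7r, Dntt, Rag1 and Cd3e, of which Cd3e was at 0 in all 16 libraries) was 59.5 to 87.9 CPM in WT, 56.8 to 69.5 in Kat6b E/E, 23.3 to 42.0 in Kat6a E/E and 7.42 to 46.3 in double point mutants. Over the 16 libraries the sums ran from 35.6 to 217 CPM for 5 hepatocyte genes, 127 to 227 for 6 macrophage genes, 3026 to 6261 for 6 granulocyte and mast cell genes, 127 to 261 for 5 megakaryocyte genes and 52.3 to 123 for 4 endothelial genes, with ranges that overlapped between WT and Kat6a E/E cells, and between Kat6b E/E cells and double point mutants, for each of these. The lymphoid sums overlapped in neither pair. Between double point mutants and Kat6b E/E cells, 1 of 5 tested granulocyte and mast cell genes and 1 of 5 megakaryocyte genes were lower at an FDR of 0.05 (limma), and no gene of the other lists passed, against 1.48% of all genes. Between Kat6a E/E and WT cells, 1 macrophage gene of 6 was higher, and 1 of 8 LSK, 1 of 5 granulocyte and mast cell, 1 of 5 megakaryocyte and both tested lymphoid genes were lower, against 1.36% of all genes. Without surrogate variables, limma called 0 of all genes in the first of these contrasts and 3 in the second. The part of these cells in the Dglucy levels was not tested.

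Transcripts of the mutated genes were present at similar levels in every LSK genotype. Kat6a stood at 174 ± 8.35 TMM CPM in WT, 180 ± 5.63 in Kat6a E/E, 167 ± 26.6 in Kat6b E/E and 183 ± 11.3 in double point mutants (SD, n = 4). Kat6b stood between 31.1 ± 6.61 in Kat6b E/E cells and 35.6 ± 3.40 in WT. The counts do not separate mutant from WT sequence, so they check no genotype label.

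Among the genes within 500 kb of Dglucy on the chromosome, Ttc7b and Rps6ka5 lie before it and Ccdc88c, Ppp4r3a and the pseudogene Kif4-ps after it, and 4 of these 5 were tested. None of them passed between double point mutants and Kat6b E/E cells (1.48% of all genes did), or in any of the 8 comparisons at E9.5. The largest log2 difference among them in LSK cells was that of Rps6ka5, a kinase that phosphorylates histone H3 and other nuclear proteins, at 0.42 ± 0.10 (limma, FDR = 0.0541), against 1.11 for Dglucy. A single one of them, with a higher level in double point mutants, passed in 5 of the alternative settings, such as the fit without the litter block.

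**Figure D3:**
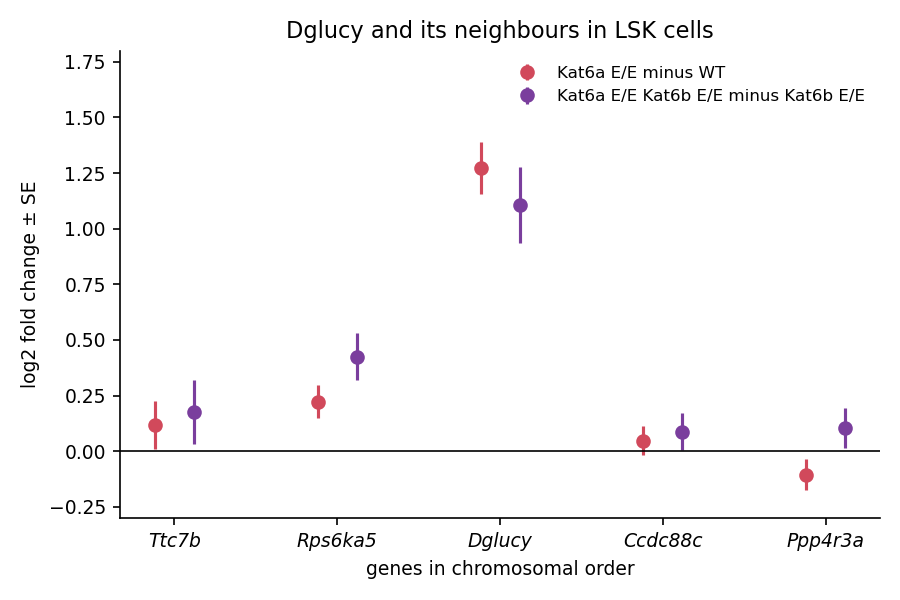
Log2 fold change ± SE (y axis) of Dglucy and 4 tested neighbours in chromosomal order (x axis) for Kat6a E/E minus WT (red) and double point mutant minus Kat6b E/E (purple) LSK cells. Dglucy stands at 1.27 and 1.11, and the neighbours lie between -0.11 and 0.42.

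Genes of the wider metabolism around the enzyme were examined as a list of 30: enzymes of D-amino acids, of 5-oxoproline and glutathione, and of glutamate, and glutamate carriers. Most of them act on the L-forms of glutamate and 5-oxoproline or on glutathione, and not on the D-forms that D-glutamate cyclase handles. Between double point mutants and Kat6b E/E cells, 1 of the 25 tested genes was higher and 1 was lower, against 1.48% of all genes, with a median log2 difference of -0.14 where that of all genes was -0.04. Both calls were lost without surrogate variables in limma and edgeR, where DESeq2 called 1 gene higher, and whenever 1 of 14 of the 16 libraries was left out, and 12 genes passed without double point mutant replicate 1. Between Kat6a E/E and WT cells 2 of the 25 were among the called genes, against 1.36% of all genes.

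The higher gene was Ggt1, a gamma-glutamyltransferase that cleaves glutathione at the cell surface. Its libraries held 1.14, 1.29, 0.80 and 1.03 TMM CPM in Kat6b E/E cells and 3.776, 1.259, 4.005 and 3.802 in double point mutants, so that only replicate 2 overlapped. The log2 difference was 1.72 ± 0.40 (limma, FDR = 0.0444), on 14 to 98 counts per LSK library. Unlike Dglucy, Ggt1 was high in double point mutant replicates 3 and 4. The lower gene was Aldh18a1, which makes the proline precursor pyrroline-5-carboxylate from glutamate, at -0.36 ± 0.08 (limma, FDR = 0.0401), with 237 ± 30.3 TMM CPM in Kat6b E/E cells and 212 ± 38.6 in double point mutants. Only double point mutant replicate 1, at 161.2, lay below the Kat6b E/E range of 204.5 to 270.5. Replicates 2, 3 and 4 lay inside it, at 215.5, 255.2 and 215.9.

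The other enzymes of D-amino acids were nearly or wholly unread in LSK cells or did not pass. Ddo (D-aspartate oxidase) had at most 3 counts and Dao (D-amino acid oxidase) at most 1 count in any LSK library. Srr, which makes D-serine, gave a log2 difference of -0.15 ± 0.19 (limma, FDR = 0.681). Oplah (5-oxoprolinase) stood at 2.28 ± 0.49 TMM CPM in Kat6b E/E cells and 2.87 ± 1.29 in double point mutants, and Ggct, which releases 5-oxoproline from gamma-glutamyl peptides, stood at 12.2 ± 0.71 and 11.4 ± 2.71. Glud1 (glutamate dehydrogenase), which links the glutamate pool to the citric acid cycle, gave 0.20 ± 0.08 (limma, FDR = 0.161).

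The genes whose log2 levels followed Dglucy most closely over the 16 LSK libraries were Map4k1 (a haematopoietic kinase, Pearson r = 0.930), Myo15b (0.916), Gbp3 (an interferon-inducible guanylate-binding protein, 0.909), Slfn9 (0.896) and Gnai2 (a G protein subunit, 0.895). The points share libraries, genotypes and composition, and Dglucy was chosen on part of these libraries, so the values describe likeness only. Gbp3 was the one with levels near those of Dglucy: it stood at 10.6 ± 1.31 TMM CPM in WT, 8.63 ± 2.14 in Kat6b E/E, 19.8 ± 1.35 in Kat6a E/E and 12.2 ± 4.54 in double point mutants (SD, n = 4), where replicates 3 and 4 held 10.1 and 6.98. After subtraction of the genotype means the most alike genes were Kbtbd13 (0.963), Paqr5 (0.962), Acsf2 (0.961), Tor3a (0.956) and Dusp2 (0.946), none of them in the first 5, and Spearman's rho kept only Myo15b of those 5.

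In whole embryos at E9.5 Dglucy was barely detected. The 24 libraries held 48 counts of Dglucy among 373466306, a pooled rate of 0.129 CPM (exact 95% Poisson interval 0.0948 to 0.170), where the 16 LSK libraries held 4444 among 382650717, or 11.6 CPM. WT embryos 1 to 4 had 0, 3, 2 and 6 counts, Kat6a-/- embryos 1, 4, 0 and 3, and Kat6b-/- embryos 2, 1, 2 and 0. Kat6a E/E embryos had 2, 3, 1 and 1 counts, Kat6b E/E embryos 2, 6, 2 and 0, and double point mutants 2, 2, 2 and 1.

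All 6 genotypes overlapped. The 4 libraries without a count allow up to 0.180 to 0.254 CPM (3 counts of the total). Pooled over the 4 libraries of a genotype, the rate was 0.201 CPM in WT (0.1002 to 0.359), 0.131 in Kat6a-/- (0.0564 to 0.257), 0.0751 in Kat6b-/- (0.0244 to 0.175), 0.0991 in Kat6a E/E (0.0398 to 0.204), 0.179 in Kat6b E/E (0.0859 to 0.330) and 0.109 in double point mutants (0.0437 to 0.224), with Poisson intervals that all shared a common stretch. The highest single embryo, Kat6b E/E replicate 2 with 0.514 TMM CPM, was below the lowest LSK library, which held 5.17.

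**Figure D4:**
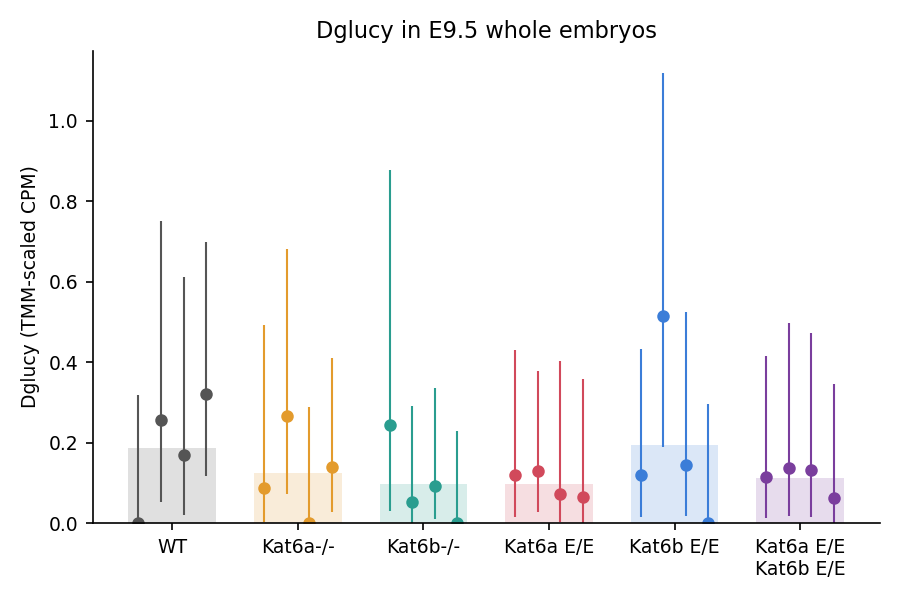
Dglucy in TMM CPM (y axis) in each E9.5 embryo of the 6 genotypes (x axis), with replicates 1 to 4 from left to right, exact 95% Poisson intervals as vertical lines and group means as pale bars. Every embryo lies between 0 and 0.514, and the intervals of all genotypes overlap.

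Dglucy did not pass the filter on low counts at E9.5. When it was kept in the fit, no comparison passed, with an FDR between 0.813 and 0.999 over the 8 comparisons (limma), and exact permutation tests gave p from 0.429 to 0.886 (two-sided, 4 against 4). The Kat6a E/E embryos had a mean of 0.0962 TMM CPM and the WT embryos 0.187 (exact permutation p = 0.486). Without WT replicate 1, which had no count, the log2 difference was -0.82 (exact permutation p = 0.0571, the smallest that 3 against 4 can give), and over the other left-out libraries it reached -0.13. From the pooled counts, the rate in Kat6a E/E embryos was 0.494 times that in WT (exact 95% interval 0.162 to 1.39, counting error only), and in double point mutants it was 0.607 times that in Kat6b E/E embryos (0.196 to 1.77). No fold change per library is given for these counts.

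These counts leave little to compare between the tissues. In a model of all 40 libraries, the difference between LSK cells and embryos in the effect of the Kat6a mutation on a Kat6b mutant background was 1.14 ± 0.67 on the log2 scale (95% interval -0.22 to 2.49, limma FDR = 0.426), and 1.12 ± 0.70 without the filter on low counts (limma, FDR = 0.545). Dglucy passed the filter of that model through its LSK counts alone, and the estimate was 0.17 without LSK double point mutant replicate 1 and 1.79 without E9.5 Kat6b E/E replicate 4. It shows neither that the tissues differ nor that they are alike.

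Of the 30 related genes, 26 were tested at E9.5. In Kat6a-/- embryos 1 was higher than in WT, against 2.64% of all genes called in that comparison, and it was Slc1a3, a glutamate transporter (log2 difference 0.32 ± 0.09, limma FDR = 0.0479). No member was called there with 0 or 2 surrogate variables, with edgeR without them or with the replicate block. In double point mutants 1 was higher, against 2.91% of all genes, and it was Chac2, a gamma-glutamylcyclotransferase that releases 5-oxoproline from glutathione (0.70 ± 0.18, limma FDR = 0.0308). No member was called there with limma, edgeR or DESeq2 without surrogate variables. No member passed in Kat6a E/E minus WT (0.275% of all genes), Kat6b-/- minus WT (0.508%), Kat6b E/E minus WT (0%), Kat6a E/E minus Kat6a-/- (1.6%), Kat6b E/E minus Kat6b-/- (0.0353%) or double point mutants minus Kat6b E/E (0.0282%).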

How the data were processed

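RNA-seq libraries were made by the authors with a TruSeq RNA v2 kit, which does not keep strand, and the authors deposited raw counts per gene, made with featureCounts on mm39 per the labels. The labels and the study's methods differ on RNA input, sequencer and read length. Protein-coding genes, without Y-linked ones, were filtered on low counts and fitted for each tissue with limma 3.58.1 (voomLmFit, TMM, 4 surrogate variables, litter as a random block with a correlation of 0.331 in LSK cells, robust moderation; R 4.3.3), following the study's methods, with Benjamini-Hochberg FDR over all genes of a contrast and a threshold of 0.05. Alternatives used edgeR 4.0.16 and DESeq2 1.42.0. Gene types were taken from a gene table that matched 26359 of 26411 genes. Dglucy failed the filter at E9.5, so its fits there kept all 18078 genes with counts. Permutation tests were exact, on log2(TMM CPM + 0.1). Cell type marker lists were LSK, erythroid, hepatocyte, macrophage, granulocyte and mast, megakaryocyte, lymphoid and endothelial. Poisson intervals and the floor of 3 counts cover counting error only.

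Dglucy, the gene lists and the tests were chosen with earlier results of these data known. Some genes of the neighbours and lists are not reported here. Named genes were Dglucy, Kat6a, Kat6b, the genes of rank 2 and 3 in the choosing contrast, tested neighbours within 500 kb, fixed or called members of the glutamate list and the 5 genes most like Dglucy. Likeness was not computed at E9.5, where Dglucy had 0 to 6 counts. Kif4-ps, outside this rule, was not tested. Libraries of 1 genotype came from separate embryos or fetuses. The scripts were tested on simulated data.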

Additional observations from a re-analysis of the deposited data

Results flagged for a closer look

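No Dglucy value stood apart from its group by Dixon's test at the 95% level, including the divided double point mutants. Among 30 groups of 4 values tested (Dglucy, genes detected and total count in 10 groups), 3 libraries stood apart, where chance gives about 1 in 20. Kat6a E/E LSK replicate 2 had 13683 genes detected against 16492 to 17037 in the others of its group. WT LSK replicate 4 had a total of 59216547 counts against 22225822 to 26475700. E9.5 WT replicate 4 had 19078839 counts against 11823454 to 12048947.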

How the results depend on the processing

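The Kat6a E/E minus WT difference in LSK cells, a description, moved by less than the pooled SD of log2 levels within the 2 genotypes under all 33 alternatives, with log2 values from 1.09 to 1.497 and ranks by p-value from 1 to 27. The call of Dglucy between double point mutants and Kat6b E/E cells (1.11, FDR = 0.0177) kept its direction in all 33 and was lost in 12. With surrogate variables in the model, the lost calls were 0.92 with 2 of them (limma FDR = 0.0806) and 1.10 with the replicate block (limma FDR = 0.0601). Without surrogate variables they were 0.72 with limma (FDR = 0.745), 0.74 with edgeR's quasi-likelihood test (FDR = 0.394) and 0.75 with DESeq2 (adjusted p = 0.304). The fit of only the 8 libraries compared, also without surrogate variables, gave 0.62 (limma FDR = 0.827). Settings chosen after seeing the data, again without surrogate variables, gave 0.92 with genes detected as a covariate (limma FDR = 0.482) and 0.31 with sample weights (limma FDR = 0.977). Without the low-detection libraries, which leaves replicate 1 as the lone double point mutant, the value was 1.46. Leaving out single libraries gave 0.19 to 1.18. The cause was not tested. Same-numbered LSK libraries of different genotypes had correlations of their deviations from -0.435 to 0.361, with 8 of 24 above 0.1. Different-numbered ones had correlations from -0.389 to 0.447, with 24 of 72 above 0.1, so the numbers were not taken as pairs.

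Of the other descriptions, double point mutants minus WT moved by more than the pooled SD in some fits without surrogate variables. It was then 0.20 with edgeR or DESeq2 and -0.25 with sample weights. Other fits without them gave smaller shifts, to 0.36 with limma, 0.38 with only the 8 libraries and 0.66 with genes detected as a covariate. Without surrogate variables or the low-detection libraries it was 1.19. Over left-out libraries, with 4 surrogate variables, it was 0.024 to 1.01. Kat6b E/E minus WT without surrogate variables moved to -0.54 with edgeR, -0.55 with DESeq2 and -0.56 with sample weights. Shifts were smaller without them at -0.37 with limma, -0.17 with only the 8 libraries and -0.26 with genes detected as a covariate. Without surrogate variables or the low-detection libraries it was -0.27. With edgeR and 4 surrogate variables it was -0.26. Double point mutants minus Kat6a E/E was -0.66 with 2 surrogate variables. Without them it moved to -1.03 with limma, -0.95 with edgeR, -0.96 with DESeq2 and -1.17 with only the 8 libraries. Also without them, it was -0.84 with genes detected as a covariate, -1.37 with sample weights and -0.19 when the low-detection libraries were left out. With edgeR and 4 surrogate variables it was -0.33, and over left-out libraries it was -1.13 to -0.23.

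At E9.5 none of the 88 alternative fits gave a call (lowest FDR 0.679). DESeq2 gave an adjusted p for Dglucy only in Kat6b E/E minus WT and Kat6b E/E minus Kat6b-/-, so its other fits there have no FDR. On 0 to 6 counts the sign turned for Kat6b E/E minus WT with 6 surrogate variables (0.069), all gene types (0.030) and the replicate block (0.036). It also turned for double point mutants minus Kat6b E/E with only the 8 libraries and no surrogate variables (0.020). Leaving out libraries moved the permutation differences from -0.82 to -0.13 for Kat6a E/E minus WT, -0.72 to -0.023 for double point mutants minus WT (p = 0.0571 for both without WT replicate 1), -0.95 to -0.22 for Kat6b-/- minus WT, -0.77 to 0.014 for Kat6a-/- minus WT, -0.39 to 0.23 for Kat6a E/E minus Kat6a-/-, -0.62 to 0.25 for double point mutants minus Kat6b E/E, -0.023 to 0.85 for Kat6b E/E minus Kat6b-/- and -0.52 to 0.35 for Kat6b E/E minus WT; 3 against 4 cannot reach a p below 0.0571.

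The 2 called glutamate genes became 0 with 6 surrogate variables, all gene types, the replicate block or no filter. Without surrogate variables they became 0 with limma, edgeR, only the 8 libraries, genes detected as a covariate or sample weights, and 1 with DESeq2. Over left-out libraries the number was 0 to 12. The 0 called neighbours became 1 without the litter block, with edgeR and 4 surrogate variables or without the low-detection libraries, and 0 to 1 over left-out libraries. The number of genes called among all ranged from 0 to 2920 for double point mutants minus Kat6b E/E (193 in the model reported), from 0 to 297 for Kat6a E/E minus WT (178), and at E9.5 from 111 to 631 for Kat6a-/- (375), 0 to 122 for Kat6a E/E (39), 0 to 200 for Kat6b-/- (72) and 0 to 811 for double point mutants (413) minus WT, 61 to 478 for Kat6a E/E minus Kat6a-/- (227), 0 to 23 for Kat6b E/E minus Kat6b-/- (5) and 0 to 116 for double point mutants minus Kat6b E/E (4).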

Other observations

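When Dglucy CPM was divided by the summed CPM of the 8 LSK markers, a ratio chosen after the values were seen, the spread within WT and Kat6b E/E cells narrowed. Per 1000 CPM of LSK markers, WT libraries held 5.63, 5.35, 5.51 and 4.97 CPM of Dglucy, and Kat6b E/E libraries 4.59, 4.73, 4.78 and 5.13. Kat6a E/E libraries held 11.96, 14.4, 11.1 and 11.7, and the low-detection replicate 2 was then the highest of the genotype. Among double point mutants, replicate 2 held 13.9, replicate 1 lay just below the lowest Kat6a E/E library, and replicates 3 and 4 held 4.51 and 5.38, on either side of the Kat6b E/E range. The cause of this division within the double point mutants was not tested.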
